A study of Homo sapiens with 24 samples.

Results

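The genes described here are 10 members of the Notch pathway, chosen by name: the 3 fringe glycosyltransferases MFNG, LFNG and RFNG, the receptors NOTCH1, NOTCH2 and NOTCH3, the ligands JAG1 and JAG2, and the target genes HES1 and HEY1. They are 10 of the 23106 gene symbols counted by RNA-sequencing in RCC4+VHL cells, a clear cell renal carcinoma line into which the missing VHL tumour suppressor was stably reintroduced, so that HIF is stabilised by hypoxia. The 24 libraries fall into 4 groups with 6 replicates in each, since cells in normoxia and cells in hypoxia were each given either DMSO or ITE (written normoxia + DMSO and so on below). ITE, a ligand that activates the aryl hydrocarbon receptor AHR, was given at 100 nM, the vehicle DMSO at 0.1%, and hypoxia was 0.5% oxygen against 21% in normoxia. Both stimuli lasted 6 h and followed about 48 h of culture in charcoal-stripped serum in every group. All libraries come from 1 transfected line, so the replicates describe that line. Of the 10 genes, 9 passed the filter on low counts (with 11735 genes in all) and NOTCH3 did not.

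Notch receptors are cell-surface proteins that are cut when a Jagged or Delta-like ligand on a neighbouring cell binds them, and the freed intracellular part joins RBPJ in the nucleus and switches on target genes such as HES1 and HEY1. Fringe enzymes work in the Golgi, where they extend O-linked fucose on the receptors' extracellular repeats and so change how strongly each kind of ligand activates them. In the kidney, Notch signalling is best known for its part in forming the nephron, and MFNG is of interest here because the study listed it in a small set of genes with HIF and AHR sites nearby that responded to each stimulus.

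The promoter sequences of RFNG, LFNG, JAG1 and HES1 are shown because the stimuli act through HIF and AHR, which favour the core letters ACGTG and GCGTG, and because HES1 is a textbook RBPJ target (GTGGGAA). The study writes the HIF motif as RCGTG, where R is A or G, so a GCGTG match can also be a HIF core. Each sequence is taken from RefSeq on GRCh38.p14 and reads 5′ to 3′ towards the start of transcription, with matches to any of these motifs on either strand in capitals. ACGTG and GCGTG differ in their first base and so never mark the same match. The windows are chr7:2512279-2512528 on the plus strand for LFNG, chr20:10674000-10674249 on the minus strand for JAG1, chr3:194135898-194136147 on the plus strand for HES1, and a 30-base stretch, chr17:82051894-82051923 on the minus strand, for RFNG.
LFNG: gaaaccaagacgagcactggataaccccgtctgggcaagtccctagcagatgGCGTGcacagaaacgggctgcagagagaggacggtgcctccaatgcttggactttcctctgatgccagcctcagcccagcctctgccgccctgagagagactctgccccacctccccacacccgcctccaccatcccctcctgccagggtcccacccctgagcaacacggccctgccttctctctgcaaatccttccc
RFNG: caccccgccgcgGCGTGccgtccacttccg
JAG1: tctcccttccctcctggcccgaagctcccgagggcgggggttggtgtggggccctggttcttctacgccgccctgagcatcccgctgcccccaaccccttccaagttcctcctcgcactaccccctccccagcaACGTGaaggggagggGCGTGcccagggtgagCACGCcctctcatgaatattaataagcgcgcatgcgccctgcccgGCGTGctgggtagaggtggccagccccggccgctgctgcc
HES1: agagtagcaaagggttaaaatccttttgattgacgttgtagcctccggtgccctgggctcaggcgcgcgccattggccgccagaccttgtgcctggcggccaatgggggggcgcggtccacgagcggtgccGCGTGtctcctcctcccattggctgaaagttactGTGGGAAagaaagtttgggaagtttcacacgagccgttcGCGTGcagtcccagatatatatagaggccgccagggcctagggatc
The table held entries for 8 of the 10 genes, all but MFNG and HEY1. LFNG had a second start, whose window (chr7:2517613-2517862, plus strand) is not printed and held GCGTG 45 bases upstream. Of the members matched, JAG1 alone held ACGTG in the 250 bases before its start, 116 bases upstream, whereas 18.5% of all 35116 promoters in the table held it in a window of this length. GCGTG, present in 32.2% of all promoters in this window, was found upstream of LFNG, RFNG, NOTCH1, NOTCH3, JAG1, JAG2 and HES1 and not of NOTCH2. The RBPJ motif, present in 5.4% of all promoters, was found upstream of HES1 alone among the members matched, 85 bases before its start. These matches describe letters in the window and were not compared with binding data.

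Levels of the 10 genes spanned a wide range in these cells. In reads per kilobase of the canonical transcript, scaled by library size (RPKM), which allows genes to be compared, the median over the 24 libraries was 46.7 for LFNG, 18.6 for NOTCH2, 11.97 for HES1, 8.23 for JAG1, 8.06 for RFNG and 3.48 for MFNG. It was 1.53 for NOTCH1, 0.947 for HEY1 and 0.639 for JAG2, and NOTCH3 had a median of 0. LFNG was thus the most abundant fringe transcript and NOTCH2 the most abundant receptor transcript in every group, while MFNG was the least abundant fringe. Values of a single gene are given below in counts scaled to a common library size (CPM), adjusted between libraries by the TMM method.

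Library depth and identity set limits on these values. The libraries held between 770094 and 93851342 counts (median 7981993). A floor of 3 counts, which covers counting error only, corresponded to 4.12 CPM in the shallowest library, hypoxia + DMSO replicate 2. The 8 renal carcinoma line markers, including PAX8 and KRT18, all passed the filter and summed to between 3493 and 6748 CPM, while 0 of 5 endothelial, 0 of 4 leukocyte and 1 of 4 fibroblast markers passed. That sum was uneven, since the medians of the 8 genes ran from 1.43 CPM for LHX1 to 2250 CPM for VIM, with PAX8 at 237 CPM. Normoxia + DMSO replicate 4 stood apart in fibroblast markers, which summed to 46.6 CPM against 0 to 3.23 CPM in the other 23 libraries. Hypoxia + ITE replicate 6 deviated most from its group, with a median absolute deviation of genes from the group mean of 0.629 on the log2 scale against 0.092 to 0.360 in the others, and its deviations followed GC content (Spearman r = 0.675 across genes, which are not independent). The next largest deviation, 0.360, was that of hypoxia + DMSO replicate 1. Both stimuli could be read in marker genes. NDRG1, a hypoxia-inducible gene, had a median of 31.1 CPM with DMSO in normoxia and of 334 CPM in hypoxia (log2 difference 3.25 ± 0.15, edgeR, adjusted p = 5.679e-15). The AHR targets CYP1B1 and TIPARP had medians of 55.8 and 46.9 CPM in the same controls and of 322 and 124 CPM with ITE (log2 differences 2.51 ± 0.20 and 1.35 ± 0.17, edgeR, adjusted p = 7.638e-09 and 4.774e-05). CA9, a further HIF target, was at 0 in 23 of 24 libraries, among them every hypoxia library, so it did not show the stimulus. Its only counts were in 1 normoxia + DMSO library.

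MFNG, which the study chose on these libraries, was at a higher level under hypoxia and, by a smaller difference, with ITE. MFNG (chr22:37865101-37882431, minus strand, GRCh37) encodes manic fringe and has 8 exons in its canonical transcript. In normoxia + DMSO its level had a lowest value of 1.98, a median of 4.13 and a highest value of 4.70 CPM. With ITE in normoxia these were 4.10, 6.55 and 8.33 CPM, and with DMSO in hypoxia 6.87, 10.4 and 14.5 CPM. Under both stimuli the lowest was 8.21, the median 12.6 and the highest 23.4 CPM. Every hypoxia + DMSO library lay above every normoxia + DMSO library, as for 1.80% of all genes tested. The lowest of them, 6.87 CPM, rests on 5 counts in replicate 2, the shallowest library, where 3 counts correspond to 4.12 CPM. The normoxia + ITE range overlapped that of normoxia + DMSO at its lower end and that of hypoxia + DMSO at its upper end. Ordered by their means, the groups ran from normoxia + DMSO through normoxia + ITE and then hypoxia + DMSO to the combination of both stimuli, and each pair of neighbours in this order overlapped. In these bulk libraries, a change in the share of cells that express a gene and a change in RNA per cell cannot be told apart.

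**Figure D1:**
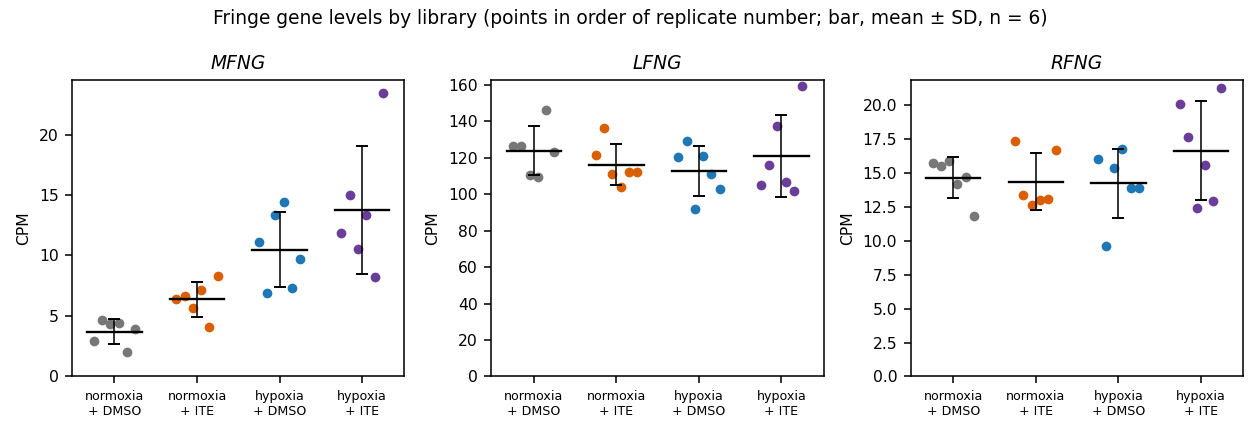
Levels of the 3 fringe genes in CPM (vertical axes, starting at 0) in the 24 libraries, grouped by treatment, with the mean ± SD of 6 replicates. The MFNG points step upward from a mean of 3.71 CPM in normoxia + DMSO to 13.7 CPM in hypoxia + ITE, while the LFNG and RFNG points of all groups overlap.

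The difference of MFNG between hypoxia and normoxia with DMSO was 1.48 ± 0.25 on the log2 scale (SE), or 2.79-fold. MFNG was higher in 6 of 6 same-numbered replicates, as 5.90% of all genes were. For ITE in normoxia the difference was 0.71 ± 0.25, or 1.64-fold, again higher in 6 of 6, as 4.20% of all genes were. Because the study selected MFNG on these libraries and these comparisons, both values are given as a description and carry no test. In edgeR's quasi-likelihood fit to all genes, an adjusted p-value under 0.05 was reached by 1 of the 9 genes tested for hypoxia with DMSO, which was MFNG, against 1.30% of all genes tested, and by 0 of 9 for ITE in normoxia, against 0.0511%. MFNG did not reach it for ITE. The first of these counts rests on the gene that the study chose.

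The remaining comparisons of MFNG share libraries with those on which the study chose it, so their p-values are not independent of that choice. Both stimuli against neither reuses the same normoxia + DMSO controls. With ITE in both arms, hypoxia gave a difference of 1.11 ± 0.24 (edgeR quasi-likelihood test, adjusted p = 0.0102, 6 of 6 pairs higher), and 1 of 9 genes was called, against 2.35% of all genes. In a fit to the libraries of these 2 groups alone this difference had an adjusted p of 0.0602 (edgeR) and was not called. Both stimuli together against neither gave 1.82 ± 0.25, or 3.54-fold (edgeR, adjusted p = 1.385e-05, 6 of 6 pairs higher, no overlap between the groups, which 1.26% of all genes showed in this direction), and MFNG was the 1 of 9 called, against 2.32% of all genes. ITE added in hypoxia gave 0.34 ± 0.25 (edgeR, adjusted p = 0.64, 4 of 6 higher, 95% interval -0.16 to 0.85), and 0 of 9 genes were called against 0.0597%. The interaction of ITE and oxygen, the difference between the ITE effects in hypoxia and in normoxia, was -0.37 ± 0.35 for MFNG (edgeR, adjusted p = 0.915, 95% interval -1.08 to 0.34), and 0 of 9 members and 0 of all genes were called, with 374 of all genes (3.19%) and 0 of 9 members at an unadjusted p under 0.05 and 0 calls by DESeq2. On the linear scale, the mean was 3.71 CPM in normoxia + DMSO, to which ITE added 2.67 and hypoxia 6.75 CPM, making 13.1 CPM, and the mean measured in hypoxia + ITE was 13.7 CPM. Hypoxia + ITE replicate 6 held the highest MFNG value, 23.4 CPM, and without it the mean was 11.8 CPM. Leaving it out gave MFNG 0.14 ± 0.23 for ITE in hypoxia, and offsets for GC content and length gave 0.11 ± 0.22.

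Within each group MFNG varied by a coefficient of variation between 22.3% and 38.4%. Replicate 5 held the lowest value in 3 of the 4 groups and the second-lowest in hypoxia + DMSO. The 5 genes whose log2 CPM most resembled that of MFNG over the 24 libraries were WDR60 (Pearson r = 0.843), DENND2A (0.839), ZNF395 (0.833), FGF11 (0.828) and APOL1 (0.826), out of 11734 other genes. These points share their libraries and treatments, and after the group means were subtracted the correlations were 0.689, 0.744, 0.557, 0.514 and 0.471. For hypoxia with DMSO the 5 differed by between 0.78 (WDR60) and 1.29 (FGF11) on the log2 scale, and for ITE in normoxia by between -0.01 (ZNF395) and 0.10 (FGF11), where MFNG differed by 0.71. The nearest coding gene to MFNG, CARD10, lies 3969 bases away and belongs to the same set listed by the study. It was examined after its values were seen. Its median was 129, 153, 179 and 215 CPM in normoxia + DMSO, its ITE counterpart, hypoxia + DMSO and the combination, and its log2 differences were 0.51 ± 0.14 for hypoxia with DMSO and 0.30 ± 0.14 for ITE in normoxia, given as a description.

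LFNG and RFNG, the other fringe genes, were not called in any of the 6 comparisons. LFNG, lunatic fringe (chr7:2552163-2568811, plus strand, GRCh37), had a lowest, median and highest value of 109, 125 and 146 CPM with DMSO in normoxia and of 92.0, 116 and 129 CPM with DMSO in hypoxia. With ITE these were 104, 112 and 136 CPM in normoxia, and 102, 112 and 159 CPM in hypoxia. All 4 groups overlapped. Its differences were -0.14 ± 0.12 for hypoxia with DMSO (edgeR, adjusted p = 0.769, 95% interval -0.38 to 0.10) and -0.09 ± 0.12 for ITE in normoxia (edgeR, adjusted p = 0.9998, 95% interval -0.33 to 0.15). These intervals leave out a change of the size measured for MFNG with either stimulus.

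RFNG, radical fringe (chr17:80005778-80009707, minus strand, GRCh37), overlaps GPS1 on the opposite strand. The library kit keeps strand, but whether the counting used it is not given in the sources used here, so part of its reads could come from GPS1. Its lowest, median and highest values were 11.9, 15.1 and 15.9 CPM with DMSO in normoxia and 9.62, 14.6 and 16.7 CPM with DMSO in hypoxia, and with ITE they were 12.7, 13.2 and 17.4 CPM in normoxia and 12.4, 16.6 and 21.2 CPM in hypoxia. The groups overlapped throughout, and the difference for hypoxia with DMSO was 0.00 ± 0.14 (edgeR, adjusted p = 0.9999, 95% interval -0.29 to 0.29). For ITE in normoxia it was -0.03 ± 0.15 (edgeR, adjusted p = 0.9998).

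In reads per kilobase, LFNG made up most of the fringe transcripts in every group. MFNG held 3.04% ± 0.995 (SD, n = 6) of the fringe reads with DMSO in normoxia and 8.62% ± 2.60 with DMSO in hypoxia, and with ITE it held 5.29% ± 1.18 and 9.98% ± 2.15. LFNG held 83.9% and 78.3% with DMSO, and 81.5% and 76.2% with ITE, in the same order. The RFNG share was 13.1% ± 1.64 in the normoxia + DMSO controls, 13.1% ± 2.45 with hypoxia and 13.2% ± 1.64 with ITE. Its difference was -0.0361 percentage points for hypoxia (exact permutation test, two-sided, p = 0.963, adjusted p = 0.963 over 4 share tests) and 0.117 points for ITE (exact permutation test, p = 0.894, adjusted p = 0.963). Here the smallest p that 6 against 6 libraries allow is 0.00216.

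NOTCH1 and NOTCH2 had lower medians in hypoxia than in normoxia with DMSO, but neither difference passed the test. NOTCH1 (chr9:139388885-139440500, minus strand, GRCh37) encodes a receptor with broad roles in development, and its lowest, median and highest values were 14.2, 18.2 and 19.6 CPM with DMSO in normoxia and 9.55, 13.6 and 15.2 CPM with DMSO in hypoxia, and with ITE they were 11.98, 14.4 and 17.5 CPM in normoxia and 8.88, 14.4 and 18.5 CPM in hypoxia. It was lower in 5 of 6 hypoxia + DMSO libraries than in their same-numbered control, with ranges that overlapped. The difference was -0.42 ± 0.17 (edgeR, unadjusted p = 0.0188, adjusted p = 0.369). With ITE in normoxia it was lower in 6 of 6 pairs, which 3.89% of all genes were, by -0.28 ± 0.16 (edgeR, adjusted p = 0.9998). In a fit to the compared groups alone with a term for replicate number, chosen after seeing the data, this was -0.29 ± 0.11 (edgeR, adjusted p = 0.22). With ITE in both arms the hypoxia difference was -0.03 ± 0.17 (edgeR, adjusted p = 0.944, 95% interval -0.38 to 0.31). The difference between those hypoxia values is the interaction, 0.39 ± 0.24 (edgeR, adjusted p = 0.915).

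NOTCH2 (chr1:120454176-120643366, minus strand, GRCh37) has near-identical NOTCH2NL copies in the genome, and since reads that did not map uniquely were removed, its level is uncertain. The lowest, median and highest values were 186, 240 and 286 CPM with DMSO in normoxia and 114, 198 and 236 CPM with DMSO in hypoxia, and with ITE they were 212, 228 and 252 CPM in normoxia and 128, 188 and 297 CPM in hypoxia. The lowest hypoxia + DMSO value, 114 CPM, was in replicate 1. All groups overlapped, and the differences were -0.32 ± 0.17 for hypoxia with DMSO (edgeR, adjusted p = 0.575, 95% interval -0.67 to 0.03) and -0.03 ± 0.17 for ITE in normoxia (edgeR, adjusted p = 0.9998).

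**Figure D2:**
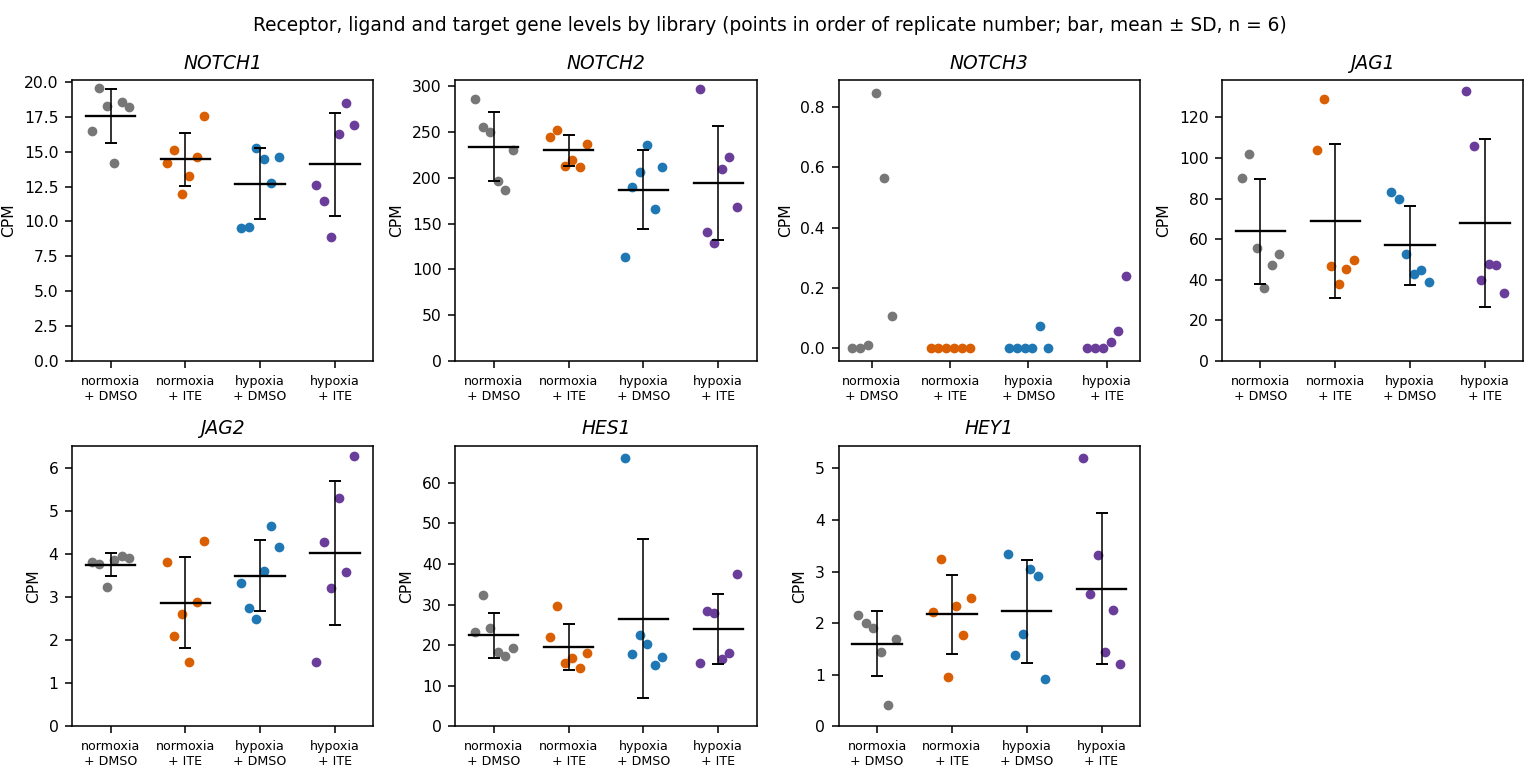
Levels in CPM (vertical axes) of the receptor, ligand and target genes in the 24 libraries by treatment, with the mean ± SD of 6 replicates, except NOTCH3, for which only the points are drawn. JAG1 forms an upper and a lower set of points in each group, HES1 has 1 point at 66.2 CPM in hypoxia + DMSO, and the groups of each gene overlap.

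The NOTCH2 share of receptor reads per kilobase was 91.5% ± 1.44 (SD, n = 6) in the normoxia + DMSO controls, 93.0% ± 0.721 with ITE and 92.4% ± 1.22 with hypoxia. ITE gave a difference of 1.51 percentage points (exact permutation test, two-sided, p = 0.0325, adjusted p = 0.13 over 4 share tests, 5 of 6 pairs higher), which did not pass. Hypoxia gave 0.85 points (exact permutation test, p = 0.31, adjusted p = 0.62).

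NOTCH3 (chr19:15269849-15311806, minus strand, GRCh37), a receptor best known from vascular smooth muscle, was close to undetected. It had 36 counts in all 24 libraries, was at 0 in 16 of them, and had 23 of the counts in normoxia + DMSO replicate 4, where it reached 0.847 CPM. That is the library in which 4 of 4 fibroblast markers were detected at a sum of 46.6 CPM and the endothelial markers summed to 4.01 CPM, against at most 0.888 CPM elsewhere. Elsewhere NOTCH3 had 13 counts in 7 of 23 libraries and reached at most 0.566 CPM. No fold change is given for it.

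JAG1 (chr20:10618332-10654647, minus strand, GRCh37), a Notch ligand with developmental roles in liver, heart and kidney, differed between replicate numbers and not detectably between treatments. Its lowest, median and highest values were 36.1, 54.3 and 102 CPM with DMSO in normoxia and 38.9, 48.6 and 83.3 CPM with DMSO in hypoxia, and with ITE they were 38.0, 48.5 and 129 CPM in normoxia and 33.3, 47.6 and 133 CPM in hypoxia. The differences were -0.21 ± 0.34 for hypoxia with DMSO (edgeR, adjusted p = 0.905, 95% interval -0.91 to 0.49) and 0.10 ± 0.33 for ITE in normoxia (edgeR, adjusted p = 0.9998). In all 4 groups the replicates numbered 1 and 2 held the highest values.

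**Figure D3:**
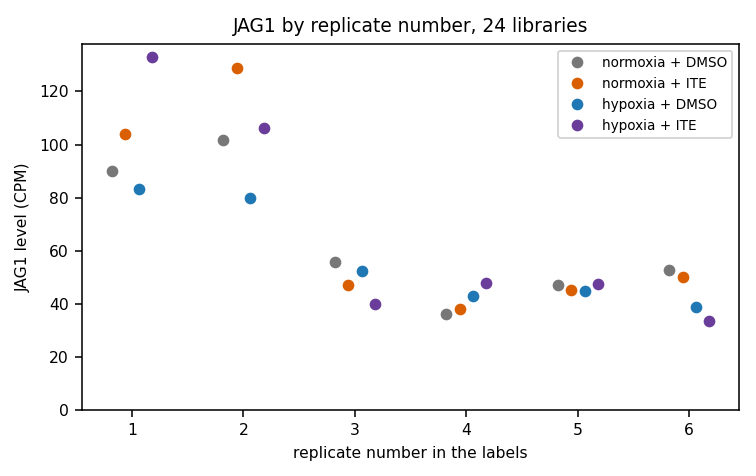
JAG1 levels in CPM (vertical axis, starting at 0) against the replicate number in the labels (horizontal axis), coloured by treatment. The 8 libraries numbered 1 and 2 sit between 79.7 and 133 CPM, above the 16 libraries numbered 3 to 6, which sit between 33.3 and 55.8 CPM.

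Over all groups, the 8 libraries numbered 1 and 2 ranged from 79.7 to 133 CPM with a median of 103, and the 16 libraries numbered 3 to 6 ranged from 33.3 to 55.8 CPM with a median of 46.1. The ratio of the means on the log scale was 2.28-fold. This separation was seen in 37 of 11735 genes, or 0.315%, and it was noticed in the data, so it carries no test. The labels do not say what the replicate numbers stand for. The gene most like JAG1 over the 24 libraries was VCAM1 (Pearson r = 0.887), followed by SLC17A3 (0.843) and FAM84B (0.842), a list likewise drawn up after the values were seen and over libraries that share the same numbers.

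JAG2, HES1 and HEY1 stayed within the spread of the replicates. JAG2, a second Jagged ligand, spanned 3.23 to 3.96 CPM (median 3.84) with DMSO in normoxia and 2.50 to 4.66 CPM (median 3.47) with DMSO in hypoxia. With ITE it spanned 1.504 to 4.31 CPM (median 2.75) in normoxia and 1.49 to 6.28 CPM (median 3.93) in hypoxia, on 1989 counts over all libraries. The difference for hypoxia with ITE in both arms was 0.53 ± 0.25 (edgeR, unadjusted p = 0.0464, adjusted p = 0.24, higher in 5 of 6), and for ITE in normoxia -0.36 ± 0.25 (edgeR, adjusted p = 0.9998).

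HES1 (chr3:193853937-193856521, plus strand, GRCh37), a repressor that is the classic readout of Notch activity, had lowest, median and highest values of 17.3, 21.4 and 32.3 CPM with DMSO in normoxia and 15.2, 19.1 and 66.2 CPM with DMSO in hypoxia, and with ITE they were 14.4, 17.6 and 29.6 CPM in normoxia and 15.6, 23.0 and 37.4 CPM in hypoxia. It was lower with ITE in normoxia in 6 of 6 pairs, which 3.89% of all genes were, by -0.23 ± 0.29 (edgeR, adjusted p = 0.9998), with overlapping ranges. That fit pooled the spread over all 24 libraries and had no term for replicate number. In a fit with that term to the compared groups alone, chosen after seeing the data, HES1 was at -0.220 ± 0.097 (edgeR, adjusted p = 0.313). For hypoxia with DMSO it differed by 0.24 ± 0.29 (edgeR, adjusted p = 0.859), and 1 library decided that sign: without hypoxia + DMSO replicate 1, at 66.2 CPM, the difference was -0.28. HEY1, a related repressor and Notch target, was low at 0.424 to 5.20 CPM and 1022 counts in all, and differed by 0.51 ± 0.36 for hypoxia with DMSO (edgeR, adjusted p = 0.714) and by 0.36 ± 0.35 for ITE in normoxia (edgeR, adjusted p = 0.9998).

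**Figure D4:**
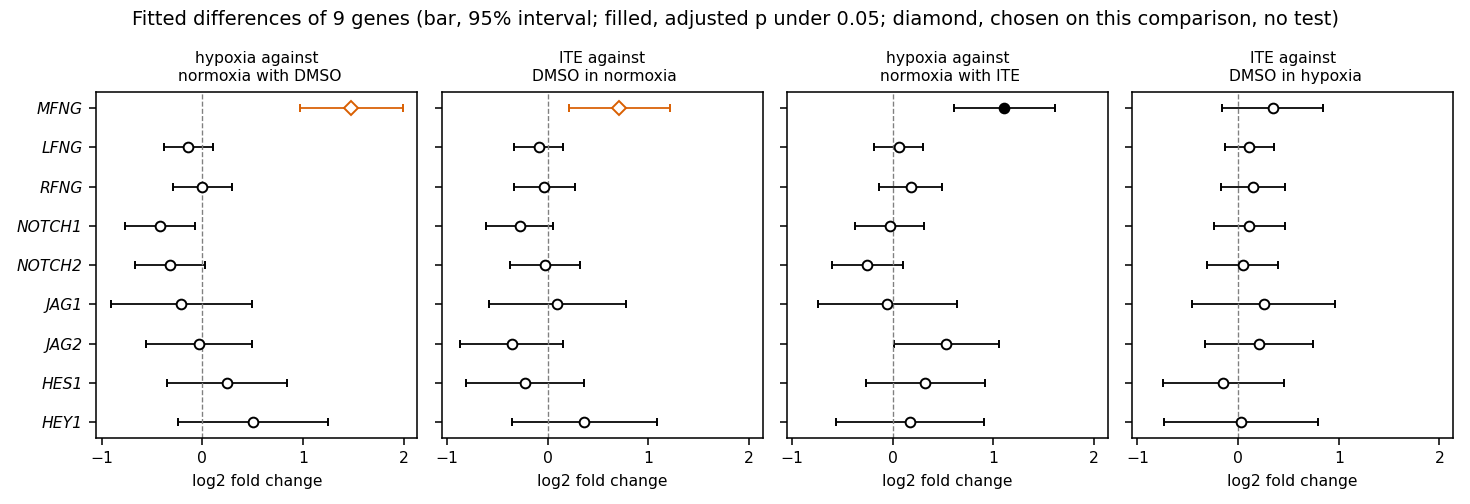
Fitted log2 fold changes (horizontal axes) of the 9 tested genes in 4 comparisons, with 95% intervals and filled points for an adjusted p-value under 0.05. Open diamonds mark MFNG where the study chose it on that comparison and no test is given, at 1.48 and 0.71, MFNG is filled for hypoxia with ITE, at 1.11, and the other 8 genes have open points in all 4 panels.

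Of the 8 tested members other than MFNG, 0 passed the edgeR threshold in any of the 6 comparisons. At an unadjusted p under 0.05, 1 of 8 was found for hypoxia with DMSO, against 9.47% of all genes, and 0 of 8 for ITE in normoxia, against 1.46%, and DESeq2 also called 0 in each comparison and found 1 and 0 of 8 at that level. In the compared groups alone with a term for replicate number, chosen after seeing the data, NOTCH1 and HES1 lay under it for ITE in normoxia (edgeR, unadjusted p = 0.0143 and 0.0299, adjusted p = 0.22 and 0.313). In the main fit, the median difference of the 8 genes was -0.09 for hypoxia with DMSO and -0.06 for ITE in normoxia, beside -0.003 and 0.00 over all genes tested. The standard errors of these genes had a median of 0.21 for hypoxia with DMSO and reached 0.36. For ITE in normoxia the 95% intervals of JAG1 and HEY1 reached up to 0.78 and 1.08, past the 0.71 measured for MFNG. These intervals come from the fit without a term for replicate number. With that term JAG1 was at 0.039 ± 0.140 and HEY1 at 0.405 ± 0.354, so the width for JAG1 depends on the fit.

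A wider list of 64 Notch pathway genes, fixed by role, was counted in the same fit. Of these, 47 passed the filter, and the 17 that did not included the receptor NOTCH4 and the 6 other ligands, such as DLL1 and DLL4. Called genes numbered 0 of 47 for hypoxia with DMSO, ITE in normoxia, hypoxia with ITE, ITE in hypoxia and the interaction, and 1 of 47 for both stimuli against neither, where 2.32% of all genes were called. At an unadjusted p under 0.05 there were 2 of 47 for hypoxia with DMSO, against 9.47% of all genes, and 0 of 47 for ITE in normoxia, against 1.46%, and DESeq2 called 0 in both. With ITE in both arms there were 6 of 47 against 20.1%, for ITE in hypoxia 2 of 47 against 9.56%, for both stimuli 7 of 47 against 19.3%, and for the interaction 2 of 47 against 3.19%. The median difference of the list was -0.05 for hypoxia with DMSO and 0.03 for ITE in normoxia.

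**Figure D5:**
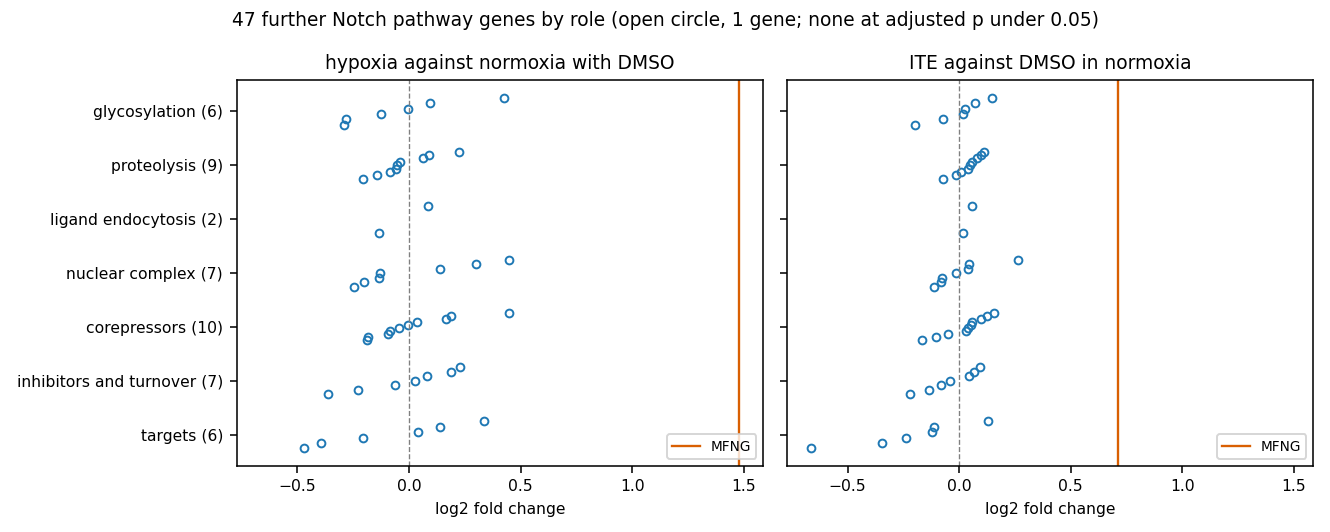
Log2 fold changes (horizontal axes) of 47 further Notch pathway genes, 1 open circle each, arranged by role with the number of genes tested in brackets, and MFNG as a vertical line. The circles lie between -0.47 and 0.45 for hypoxia and between -0.67 and 0.26 for ITE, and MFNG lies to the right of all of them, at 1.48 and 0.71. The study chose MFNG on these same comparisons, so its place is a description and no test.

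The called gene was PSENEN, which encodes a subunit of the gamma-secretase that releases the Notch intracellular part. Its median rose from 35.0 CPM in normoxia + DMSO to 45.7 CPM in hypoxia + ITE, a difference of 0.67 ± 0.18 (edgeR, adjusted p = 0.0455, higher in 5 of 6 pairs), and its hypoxia + ITE values spread from 35.0 to 92.4 CPM and overlapped the controls. The call was lost in 18 of the 24 fits that left out 1 library (adjusted p between 0.00944 and 0.155), the smallest difference, 0.46, coming without hypoxia + ITE replicate 3, and DESeq2 made it (adjusted p = 0.0144). It was also lost with the compared groups alone (edgeR, adjusted p = 0.287), with upper-quartile scaling (0.0516), with no filter on low counts (0.0544) and with GC and length offsets (0.0551). Without 3 libraries in doubt, chosen after seeing the data, namely normoxia + DMSO replicate 4, hypoxia + DMSO replicate 1 and hypoxia + ITE replicate 6, PSENEN was at 0.54 (edgeR, adjusted p = 0.0893), and 2 of 47 genes, DTX2 and CCND1, were called. RBPJ, the DNA-binding partner of the Notch intracellular part, was higher in 6 of 6 pairs with hypoxia, as 5.90% of all genes were. Its median was 94.7 CPM in normoxia + DMSO and 130 CPM in hypoxia + DMSO, a difference of 0.45 ± 0.14 (edgeR, unadjusted p = 0.00303, adjusted p = 0.147) that did not pass. KAT2B, an acetyltransferase coactivator, differed by 0.26 ± 0.18 and the xylosyltransferase XXYLT1 by 0.15 ± 0.11 for ITE in normoxia (edgeR, adjusted p = 0.9998 each, both higher in 6 of 6, as 4.20% of all genes were).

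Lower values in 6 of 6 pairs were seen for CCND1 (cyclin D1), EOGT (an O-GlcNAc transferase) and CDKN1A (the cell cycle inhibitor p21) with hypoxia, as in 5.23% of all genes. CCND1 had a median of 231 CPM in the controls, 162 CPM with hypoxia and 168 CPM with ITE, with differences of -0.40 ± 0.20 for hypoxia (edgeR, adjusted p = 0.537) and -0.35 ± 0.20 for ITE (edgeR, adjusted p = 0.9998). EOGT differed by -0.29 ± 0.26 and CDKN1A by -0.20 ± 0.13 for hypoxia (edgeR, adjusted p = 0.781 and 0.659). DTX2, a Deltex ubiquitin ligase, differed by -0.22 ± 0.11 for ITE in normoxia (edgeR, adjusted p = 0.9998). None of these 5 differences passed the threshold.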

How the data were processed

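RNA from RCC4+VHL cells was sequenced as directional polyA+ libraries from independent replicates. The authors trimmed adaptors with Trim Galore 0.3.3, aligned reads to GRCh37 with HISAT2, removed fragments that did not map uniquely with Picard 2.0.1 and counted reads per UCSC gene with HTSeq 0.5.4p3, and the deposited values are these raw counts, not normalised. Groups and replicate numbers came from the sample labels.

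Genes passing filterByExpr (minimum count 10) in edgeR 4.0.16 (R 4.3.3) were scaled by TMM, and the quasi-likelihood fit over all 24 libraries had a term for each group and no others. The 2-sided p-values were adjusted over 11735 genes by the Benjamini-Hochberg method (threshold 0.05). Log2 CPM used a prior count of 2. RPKM used canonical transcript lengths of GENCODE v44lift37. Fits were tested on simulated data. Shares were compared by exact permutation of 6 against 6 libraries.

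The members and lists were chosen with earlier results of these data known. Named beside the members were wider-list genes called in any comparison, or with the largest changes (up to 3 per direction, mean of at least 1 CPM) in the same direction in 6 of 6 pairs, the 5 genes most correlated with MFNG, and stimulus markers. JAG1's neighbours in likeness and CARD10 were added after values were seen. Alternatives were DESeq2 1.42.0, other normalisations and filters, the replicate block, the compared groups alone, GC and length offsets (available for 90.5% of tested genes), and leaving out libraries. A further pair of fits was chosen after seeing the data: the block with the compared groups alone, and leaving out 3 libraries in doubt.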

Additional observations from a re-analysis of the deposited data

Results flagged for a closer look

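In 48 sets of 6 replicates (10 genes and 2 shares in 4 groups), 5 had 1 library far from the other 5 by Dixon's test, which chance gives in about 1 in 20 sets of continuous values. NOTCH3, mostly at 0, has no such values: it was at 0 throughout normoxia + ITE, where the test has no value, and a single library above 0 is always set apart. HES1 was 66.2 CPM in hypoxia + DMSO replicate 1, and the other 5 libraries lay between 15.2 and 22.6 CPM. JAG2 was 3.23 CPM in normoxia + DMSO replicate 3, below the 3.76 to 3.96 CPM of the others in a narrow group. The RFNG share of fringe reads per kilobase was 8.41% in hypoxia + DMSO replicate 2, the shallowest library, where the others lay between 13.2% and 15.7%. NOTCH3 was 0.0755 CPM in hypoxia + DMSO replicate 5, where the others were at 0, and 0.241 CPM in hypoxia + ITE replicate 6, where the next was 0.0578 CPM, values that rest on few counts.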

How the results depend on the processing

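MFNG was the called member in hypoxia with DMSO, hypoxia with ITE and both stimuli under all alternatives run but these: with at least 10 counts required in every library, 0 members were called in each, since MFNG, at 5 counts in hypoxia + DMSO replicate 2, was not tested, and with the compared groups alone 0 were called for hypoxia with ITE. All refits here reuse libraries on which the study chose MFNG, so its calls describe the fits and give no independent support. The MFNG difference over the libraries left out in turn ranged from 1.37 to 1.60 for hypoxia with DMSO and from 0.61 to 0.84 for ITE in normoxia. Same-numbered libraries did not deviate together in every pair (correlation over 0.1 in 2 to 5 of 6 numbers, depending on the pair of groups). The main fit had no term for the numbers, and counts of same-numbered pairs are given as a description. A level shared by a replicate number, as seen for JAG1, therefore stayed in the spread of that fit. Over the pairs of groups, 2 to 5 of 6 libraries correlated best with their own number. With the replicate block, the members called stayed at 1, 0, 1, 0, 1 and 0 in the 6 comparisons, in the order hypoxia with DMSO, ITE in normoxia, hypoxia with ITE, ITE in hypoxia, both and interaction. MFNG was called (1 member) for ITE in normoxia with GC and length offsets and the block, at 0.832, and, chosen after seeing the data, with the block and the compared groups alone, at 0.771, a fit that called 255 of 11511 genes. RBPJ was called for hypoxia with DMSO under the block. With the block, PSENEN was not called for both stimuli (edgeR, 0.614, adjusted p = 0.0692, or adjusted p = 0.5135 with the compared groups alone as well), and JAG1 for ITE in normoxia was 0.039 ± 0.140 (SE), against 0.10 ± 0.33 without it.

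Differences near 0 changed sign. For hypoxia with DMSO, RFNG was -0.028, -0.008 and -0.003 with upper-quartile scaling, no filter and the compared groups alone, JAG1 was 0.022 and 0.046 and JAG2 0.166 and 0.121 with GC and length offsets without and with the block. For ITE in normoxia, these offsets gave 0.011 and 0.009 for LFNG and 0.093 and 0.097 for RFNG, and 0.002 for NOTCH2 with the block. Without the 3 libraries in doubt, hypoxia with DMSO gave RFNG -0.036, JAG2 0.007 and HES1 -0.350, and ITE in normoxia gave JAG1 -0.042. Leaving out 1 library in turn gave, for hypoxia with DMSO, RFNG -0.052 to 0.042, JAG2 -0.163 to 0.071 and HES1 -0.279 to 0.387, and for ITE in normoxia, RFNG -0.092 to 0.002, NOTCH2 -0.083 to 0.040 and JAG1 -0.173 to 0.285. None of these was called, and the cause was not tested.

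The NOTCH2 share difference for ITE ranged from 1.02 to 1.919 points over the libraries left out, and passed (exact permutation test, p = 0.00649, adjusted p = 0.026) without normoxia + DMSO replicate 1. The RFNG share difference for hypoxia was 0.073 points from raw counts and 0.894 without libraries under 2000000 counts, and ranged from -0.572 to 0.894 over the libraries left out, and for ITE from -0.333 to 0.589. The exact sign-flip test of same-numbered pairs (replicate block) gave p = 0.0625 for the NOTCH2 share with ITE. Over all genes, calls ranged from 112 to 303 for hypoxia with DMSO, 159 to 811 for hypoxia with ITE and 169 to 738 for both stimuli as libraries were left out, and were 251, 683 and 646 with DESeq2. For ITE in normoxia they were 6, 14 with DESeq2, 13 with the block, 30 with the compared groups alone and 255 with both. Depth limits JAG2, at 2 counts in each of the 2 shallowest libraries, and HEY1, at 1 count in the shallowest.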
